A study of Mus musculus with 58 samples.

Results

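The genes described here are 9 germline genes, Stra8, Dazl, Ddx4, Mael, Sycp1, Sycp3, Hormad1, Tex101 and Slc25a31, out of 20177 genes counted in the files. They were chosen because their read counts differed between mouse embryonic stem (mES) cells with and without Kdm5a and Kdm5b, and over retinoic acid (RA) treatment. Their values in those libraries are therefore a description, and no test is given for them there. Each gene was found by its symbol, and the reads of all its 3′ UTR intervals were added up. All 9 had reads.

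RNA was measured in E14 mES cells of the 129/Ola strain, grown in serum with leukaemia inhibitory factor (LIF), after degradation of subunits of the SET1/COMPASS enzymes that methylate histone H3 at lysine 4. DPY30–mAID cells carry OsTIR1 and an auxin-inducible degron on DPY30 and were given auxin for 0, 2, 8 or 24 h (3 libraries per time). DPY30–mAID Kdm5a/b-dKO cells (dKO) carry the same degron and lack the H3K4me3 demethylases KDM5A and KDM5B. They were given auxin for 0, 2, 4, 8, 24 or 48 h (2 libraries per time). RBBP5–FKBP cells carry a dTAG-13-inducible degron on RBBP5 and were given dTAG-13 for 0, 2, 8 or 24 h (3 libraries per time). These 36 libraries were SLAM-seq libraries, for which cells were labelled with 100 µM 4-thiouridine for 60 min so that new RNA carries T>C conversions. A further 22 Quant-seq libraries, without labelling, came from DPY30–mAID cells in 1 µM RA without LIF, with DMSO at 0 h, 8 h and days 1, 2, 4 and 6, or with auxin at 8 h and days 1, 2, 4 and 6 (2 libraries per group). The degron lines and the dKO cells are clonal, and the methods name 2 dKO clones. The labels do not say which library came from which clone. The study calls its SLAM-seq replicates biological, while the labels name no separate cultures, so that p-values measure only the spread between these libraries.

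Germline genes of this kind are transcribed in primordial germ cells, in meiotic cells or in developing sperm, and are kept off in somatic cells and largely off in mES cells. In mES cells the known brakes are DNA methylation of CpG-rich promoters and a variant Polycomb complex, PRC1.6, in which MGA with MAX recognises E-boxes and E2F6 with its partners recognises E2F-type sites. KDM5 enzymes remove the promoter mark H3K4me3. Retinoic acid induces Stra8 in germ cells that enter meiosis.

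The promoters of the members are shown because those sequence elements can be read directly in them. Of the 9 members, 6 (Ddx4, Mael, Sycp1, Sycp3, Hormad1 and Slc25a31) held the E-box CACGTG in the 250 bases before the start, against 6.86% of the 27025 genes with a promoter in the table and 15 of the 57 other germline genes there, a gene with several promoters being counted when any of them held it. The E2F-type motif GCGGGA, searched on both strands, stood in 4 members (Mael, Ddx4, Sycp3 and Hormad1), against 18.8% of all genes. The half-site AGGTCA of nuclear receptors, also searched on both strands, stood in 3 (Stra8, Sycp3 and Hormad1), against 15.8%. The Stra8 promoter held 2 copies of the half-site and no E-box. The number of CpGs ranged from 5 in Stra8 to 31 in Ddx4, where the median over all promoters was 6. A match describes the letters only. The sequences come from RefSeq on GRCm38.p6, which gave a promoter for all 9 members, and are written 5′ to 3′ on the strand of the gene, with capitals for these 3 motifs on either strand. The 5 members with the highest levels or the clearest differences in the libraries are at chr6:34920698-34920947 (plus strand, Stra8), chr17:50293621-50293870 (minus strand, Dazl), chr13:112652311-112652560 (minus strand, Ddx4), chr1:166238745-166238994 (minus strand, Mael) and chr3:40708621-40708870 (plus strand, Slc25a31).
Stra8: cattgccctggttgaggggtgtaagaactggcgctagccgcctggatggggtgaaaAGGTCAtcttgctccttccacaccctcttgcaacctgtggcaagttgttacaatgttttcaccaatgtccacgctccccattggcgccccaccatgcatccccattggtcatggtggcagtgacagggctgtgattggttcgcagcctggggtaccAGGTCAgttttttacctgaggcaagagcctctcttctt
Dazl: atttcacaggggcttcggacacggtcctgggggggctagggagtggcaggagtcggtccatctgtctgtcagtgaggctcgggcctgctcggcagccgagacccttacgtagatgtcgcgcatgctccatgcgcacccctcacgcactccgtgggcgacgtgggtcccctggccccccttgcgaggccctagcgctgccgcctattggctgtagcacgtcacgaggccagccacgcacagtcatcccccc
Ddx4: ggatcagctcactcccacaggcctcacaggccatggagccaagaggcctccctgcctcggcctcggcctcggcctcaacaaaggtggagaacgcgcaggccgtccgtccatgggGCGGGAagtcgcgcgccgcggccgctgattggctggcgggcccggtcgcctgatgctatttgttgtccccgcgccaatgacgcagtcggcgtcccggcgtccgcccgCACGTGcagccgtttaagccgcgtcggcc
Mael: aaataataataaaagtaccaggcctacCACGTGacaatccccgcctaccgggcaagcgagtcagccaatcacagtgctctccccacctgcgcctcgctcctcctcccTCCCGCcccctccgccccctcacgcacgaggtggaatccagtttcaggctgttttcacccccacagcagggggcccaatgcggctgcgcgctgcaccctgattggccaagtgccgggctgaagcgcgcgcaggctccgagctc
Slc25a31: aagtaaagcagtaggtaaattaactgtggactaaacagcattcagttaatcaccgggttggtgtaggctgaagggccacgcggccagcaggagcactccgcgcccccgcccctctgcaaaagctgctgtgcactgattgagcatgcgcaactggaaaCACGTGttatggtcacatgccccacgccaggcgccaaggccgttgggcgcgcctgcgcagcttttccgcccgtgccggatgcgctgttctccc

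Depth differed between the lines. The totals per library ranged from 2013350 to 2806821 reads in DPY30–mAID, from 5931269 to 7792404 in dKO, from 1721185 to 2852331 in RBBP5–FKBP and from 1264241 to 2543632 in Quant-seq. For DMSO at day 6 both libraries have the same count for every gene, so they enter as a single sample. The deleted genes were lower in dKO cells at 0 h, where the mean CPM (reads scaled to the library total) fell from 921 to 130.02 for Kdm5b and from 95.1 to 26.7 for Kdm5a, although reads from a 3′ UTR outside a deleted part do not measure the deletion itself. All 10 pluripotency markers had reads in every group, and their sum was 9616 to 10376 CPM in DPY30–mAID and 7275 to 7505 CPM in dKO at 0 h. Intervals given with counts cover counting error only.

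The members were low rather than silent in untreated DPY30–mAID cells. Their summed level at 0 h was 59.1 ± 10.3 CPM (SD, n = 3) in SLAM-seq and 57.6 ± 13.6 CPM (SD, n = 2) in Quant-seq. Dazl, at 22.8 CPM in SLAM-seq, lay above 57.0% of the 12759 genes with a read, whose median was 15.8 CPM. Mael lay above 46.3% of them, Ddx4 above 39.5%, and Sycp1, Hormad1 and Tex101 above less than 10% each. In RBBP5–FKBP cells the members summed to 15.9 ± 6.97 CPM (SD, n = 3), and Stra8 had 0 reads in all 12 libraries, which allows a level of up to 0.114 CPM.

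The dKO cells held more RNA of most members than DPY30–mAID cells. At 0 h the 9 members summed to 226 ± 7.15 CPM (SD, n = 2). Every dKO library lay above every DPY30–mAID library for 6 members (Stra8, Mael, Ddx4, Slc25a31, Tex101 and Hormad1), where 34.5% of 11483 tested genes did so. Sycp3 lay wholly below, where 27.3% of tested genes did so, and Dazl and Sycp1 overlapped. The members were chosen with this comparison, so nothing is read from these shares.

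Stra8, the factor that starts meiosis in response to RA, had 83.0 and 62.8 CPM (564 and 489 reads) in the 2 dKO libraries at 0 h. The 3 DPY30–mAID libraries had 6.35, 2.14 and 5.07 CPM (13, 6 and 14 reads). The lowest dKO library was thus far above the highest DPY30–mAID library, and the ratio of the means after TMM scaling was 15.9 ± 8.15 (SD). The range in dKO cells over all 6 times was 48.6 to 83.0 CPM, with a median of 64.2 CPM over 12 libraries, and no SLAM-seq library of DPY30–mAID at any time came above 6.35 CPM.

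Mael, a protein of the piRNA pathway that silences transposons in germ cells, had the highest level of the 9 in dKO cells. Its 2 libraries at 0 h had 91.6 and 92.4 CPM, and those of DPY30–mAID had 11.2, 11.8 and 15.2 CPM. The groups did not overlap, and the ratio of TMM-scaled means was 7.12 ± 1.14 (SD). Mael ranked above 86.3% of the genes with a read in dKO cells at 0 h, and above 46.3% in DPY30–mAID cells.

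Ddx4, the Vasa RNA helicase of germ granules, had 17.2 and 20.1 CPM in dKO and 10.7, 6.77 and 7.61 CPM in DPY30–mAID at 0 h. The groups stood apart with a ratio of 2.197 ± 0.613 (SD). Dazl, an RNA-binding protein that germ cells need for their development, had 25.2 and 28.9 CPM in dKO and 18.6, 23.5 and 26.4 CPM in DPY30–mAID. Its groups overlapped, and the ratio was 1.17 ± 0.231 (SD).

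Slc25a31, the ADP/ATP carrier of germ cell mitochondria, had 8.53 and 10.1 CPM in dKO and 4.39, 2.14 and 8.33 CPM in DPY30–mAID, a ratio of 1.86 ± 1.19 (SD) that ran from 1.45 to 2.80 with single libraries left out (2.80 without the third DPY30–mAID library). The lower dKO library was only just above the highest DPY30–mAID library. Tex101, a surface protein of male germ cells, had 15 and 36 reads in dKO against 2, 0 and 2 reads in DPY30–mAID, a ratio of 5.95 with a counting interval of 2.41 to 25.0. With single libraries left out the ratio ran from 3.82, without the second dKO library, to 9.40, without the first DPY30–mAID library, and it was 3.97 without the second of these.

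The genes of the meiotic chromosome axis and synaptonemal complex were close to the limit of counting. Hormad1, an axis protein, had 12 and 12 reads in dKO and 2, 0 and 1 in DPY30–mAID, a ratio of 3.64 with a counting interval of 1.25 to 21.3. Of its reads in dKO, 78.9% mapped to more than 1 place, so its level is uncertain. Sycp1, the transverse filament protein, had 1 and 3 reads against 0, 3 and 0. Sycp3, a lateral element protein, went the other way, with 12 and 3 reads in dKO against 8, 7 and 18 in the shallower DPY30–mAID libraries. Its ratio was 0.246, with a counting interval of 0.118 to 0.442. It was 0.0888 without the first dKO library and 0.402 without the second, so that its size rests on single libraries. Every dKO library was below every DPY30–mAID library at 2, 8 and 24 h as well. The first-numbered dKO library held more Sycp3 reads than the second at all 6 times (12, 8, 5, 6, 10 and 6 against 3, 3, 4, 1, 2 and 3).

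With auxin every dKO library lay above every DPY30–mAID library for 7 of the 9 members at 2 h, where 35.4% of tested genes did so, for 5 at 8 h, where 33.0% did so, and for 8 at 24 h, where 34.2% did so. At 8 h Dazl, Ddx4 and Sycp1 overlapped. Stra8 had 63.1 and 59.3 CPM in dKO and 0, 0 and 0.807 CPM in DPY30–mAID at 24 h.

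**Figure D1:**
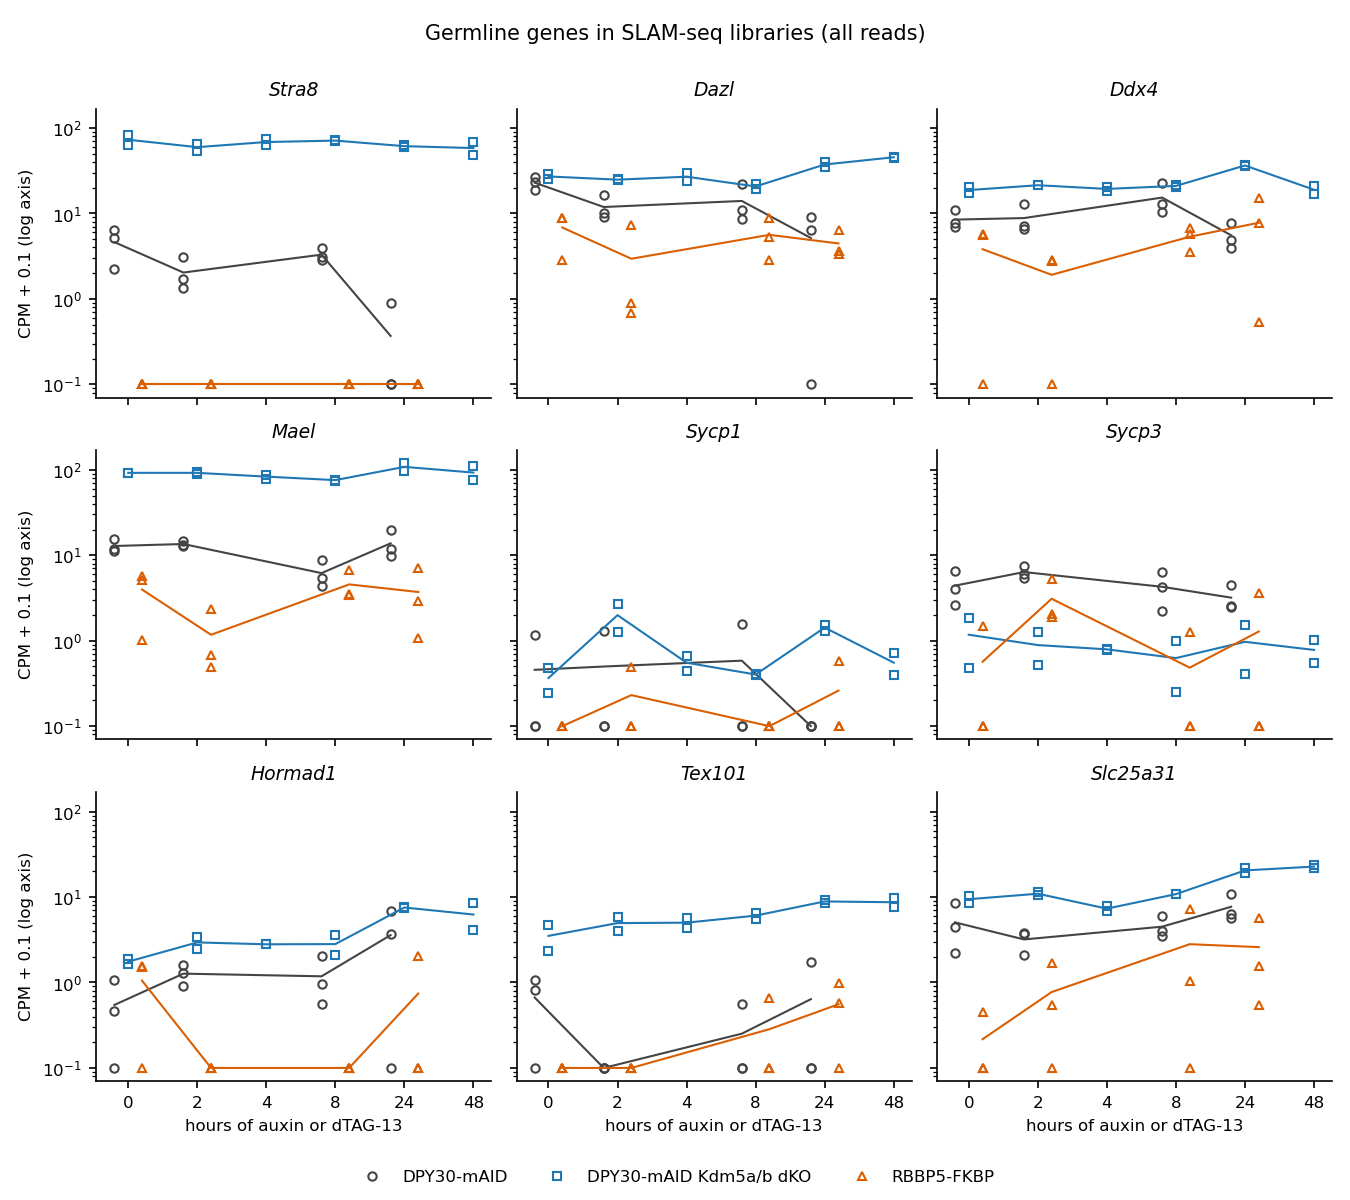
Level of each germline gene in every SLAM-seq library (CPM + 0.1 on a log axis) against hours of auxin (DPY30–mAID and dKO) or dTAG-13 (RBBP5–FKBP), with 1 point per library and lines through the means. Stra8 and Mael in dKO stay between 48.6 and 119 CPM, Stra8 has no read in RBBP5–FKBP, and Sycp3 lies wholly lower in dKO than in DPY30–mAID at 0, 2, 8 and 24 h.

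The untreated Quant-seq libraries of DPY30–mAID cells give a second control. Stra8 had 18.4 and 18.1 CPM in them, between the SLAM-seq values of DPY30–mAID and dKO. Mael had 12.99 and 15.3 CPM, close to the DPY30–mAID SLAM-seq values and far below dKO. Dazl had 4.93 and 12.97 CPM and Slc25a31 0.896 and 2.75 CPM, both below the dKO libraries. Hormad1 had 0 and 5.11 CPM there, around the 1.76 and 1.54 CPM of dKO. Sycp3 had 0.448 and 0.393 CPM (1 read each), between the 0.385 and 1.76 CPM of dKO and below the 2.49 to 6.52 CPM of the SLAM-seq control, so that its lower level in dKO was seen against the SLAM-seq control only. Ddx4 had 9.41 and 11.4 CPM and Tex101 2 and 3 reads, both below dKO in CPM, and Sycp1 had no read. Library type, labelling, depth and clone differ together between these groups and cannot be told apart.

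Markers of other cell states also differed between the lines at 0 h. The sum of the primordial germ cell markers was lower in dKO, at 59.7 to 60.7 CPM in dKO and 115 to 128 CPM in DPY30–mAID, with 6 of 6 markers detected in both. That of the 2-cell-like markers was 8.53 to 11.3 CPM in dKO, where 7 of 11 had reads, and at most 0.362 CPM in DPY30–mAID. The part of these cells or genes in the level of the members was not tested. In such bulk libraries fewer cells with a transcript and less transcript per cell cannot be told apart.

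The share of reads with T>C conversions is a measure of labelling, not the share of the RNA that carried the label. Over the 12 dKO libraries 52 of 5319 Stra8 reads had conversions, which is 0.978% (95% exact interval 0.731 to 1.28), and 3.92% of the reads of all genes did. In unlabelled Quant-seq cells the Stra8 share was 0.124% (0.0794 to 0.184) and that of all genes 0.346%. Mael had 2.06% (1.75 to 2.41), Dazl 2.18% (1.65 to 2.84), Ddx4 2.06% (1.46 to 2.81) and Slc25a31 3.27% (2.30 to 4.49) in dKO. These pooled shares of Stra8, Mael, Dazl and Ddx4 lay below that of all genes, which itself fell from 5.00% at 0 h to 2.21% at 48 h. At each of the 6 times Stra8, Mael and Ddx4 were below all genes. Dazl was not at 24 h, with 3.37% (1.97 to 5.34) against 3.06%. In DPY30–mAID, where 13.9% of all reads had conversions, Dazl had 8.38% (5.80 to 11.6), Mael 2.13% (0.860 to 4.33) and Stra8 0 of 69 reads, which allows up to 5.21%. The number of T positions that each gene's reads cover was not adjusted for.

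Within DPY30–mAID cells, 6 members (Stra8, Dazl, Ddx4, Mael, Sycp3 and Slc25a31) had a mean of at least 10 reads in some group, so that a change with time in auxin could be fitted. The members were chosen on these libraries and on those of dKO, so that no test is given for their changes within either line, nor for a difference between the lines. A gene that is no member was called when its edgeR adjusted p was below 0.05 and its log2 fold change over 1 in size. At 24 h the fitted log2 fold change of Dazl and of Stra8 was below −1, and nothing is read from this. Stra8 passed the filter only through its 0 h libraries, in which it is high.

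Dazl had 18.6, 23.5 and 26.4 CPM at 0 h, 9.04, 9.97 and 16.4 CPM at 2 h, 8.52, 22.3 and 10.9 CPM at 8 h, and 0, 6.30 and 8.88 CPM at 24 h. All 24 h libraries were below all 0 h libraries. The log2 fold change at 24 h was −2.18 (SE 0.520, edgeR). It was −1.57 without the first and −2.94 without the third 24 h library.

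Stra8 had 13, 6 and 14 reads at 0 h, 3, 4 and 6 at 2 h, 7, 8 and 6 at 8 h, and 0, 0 and 2 at 24 h. Every 24 h library was below every 0 h library, with a ratio of 0.0651 and a counting interval of 0.00757 to 0.254. The fitted log2 fold change at 24 h ran from −6.44 to −3.21 with single libraries left out. Without the third library of 0 h Stra8 no longer reached the minimum of 10 reads.

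Mael had 11.2, 11.8 and 15.2 CPM at 0 h and 4.26, 5.32 and 8.66 CPM at 8 h, when its libraries were all below those of 0 h (log2 fold change −1.17, SE 0.460). At 24 h it had 19.7, 9.70 and 11.7 CPM, which overlapped 0 h. At 24 h the log2 fold change was −0.60 (SE 0.525) for Ddx4, −0.47 (SE 0.741) for Sycp3, 0.09 (SE 0.428) for Mael and 0.60 (SE 0.676) for Slc25a31. Hormad1, Tex101 and Sycp1 had too few reads for a fit.

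Within dKO cells 8 members had enough reads, all but Sycp3. At 24 h the fitted log2 fold change was above 1 for Slc25a31, Tex101, Hormad1 and Sycp1, the last with few reads. Again nothing is read from this.

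Slc25a31 had 8.53 and 10.1 CPM at 0 h, 19.0 and 21.8 CPM at 24 h, and 21.5 and 23.8 CPM at 48 h. Both late groups were above the 0 h libraries, with a log2 fold change of 1.06 (SE 0.174) at 24 h and 1.18 (SE 0.172) at 48 h.

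Tex101 had 2.21 and 4.62 CPM at 0 h, 8.48 and 9.08 CPM at 24 h, and 9.60 and 7.58 CPM at 48 h. The groups did not overlap, and the log2 fold change was 1.28 (SE 0.318) at 24 h. It was 0.85 without the first 0 h library and 1.95 without the second.

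Hormad1 had 1.76 and 1.54 CPM at 0 h, 7.62 and 7.27 CPM at 24 h, and 3.96 and 8.32 CPM at 48 h, with a log2 fold change of 2.11 (SE 0.402) at 24 h, or 4.31 with multimapped reads subtracted. The 48 h libraries differed from each other more than those of 24 h, and most of its reads were multimapped, as above.

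Ddx4 and Dazl differed from 0 h by less. Ddx4 had 17.2 and 20.1 CPM at 0 h, 37.2 and 35.4 CPM at 24 h, and 16.6 and 21.1 CPM at 48 h, so that it stood apart at 24 h (log2 fold change 0.90, SE 0.148) and overlapped the 0 h libraries at 48 h. Dazl reached 45.7 and 45.0 CPM at 48 h (log2 fold change 0.65, SE 0.130).

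Stra8 and Mael, the highest members in dKO, stayed within 0.5 of their 0 h level on the log2 scale at these times. At 24 h the log2 fold change was −0.30 (SE 0.142) for Stra8 and 0.18 (SE 0.139) for Mael, and at 48 h it was −0.41 (SE 0.143) and −0.08 (SE 0.141). Sycp1 had at most 19 reads in a library.

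The RBBP5–FKBP libraries did not enter the choice of members, and there 3 of them, Dazl, Ddx4 and Mael, had enough reads to be tested. Neither edgeR nor DESeq2 called any of them at 2, 8 or 24 h, and 0 had an unadjusted p under 0.05. Over 9676 genes edgeR called 2.26% higher and 2.05% lower at 8 h, 1.65% and 1.83% at 24 h, and none at 2 h, so that little can be read from 3 genes. The spread between libraries was wide: Ddx4 had 0.443, 14.9 and 7.71 CPM at 24 h, and 5.54, 5.61 and 0 CPM at 0 h.

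**Figure D2:**
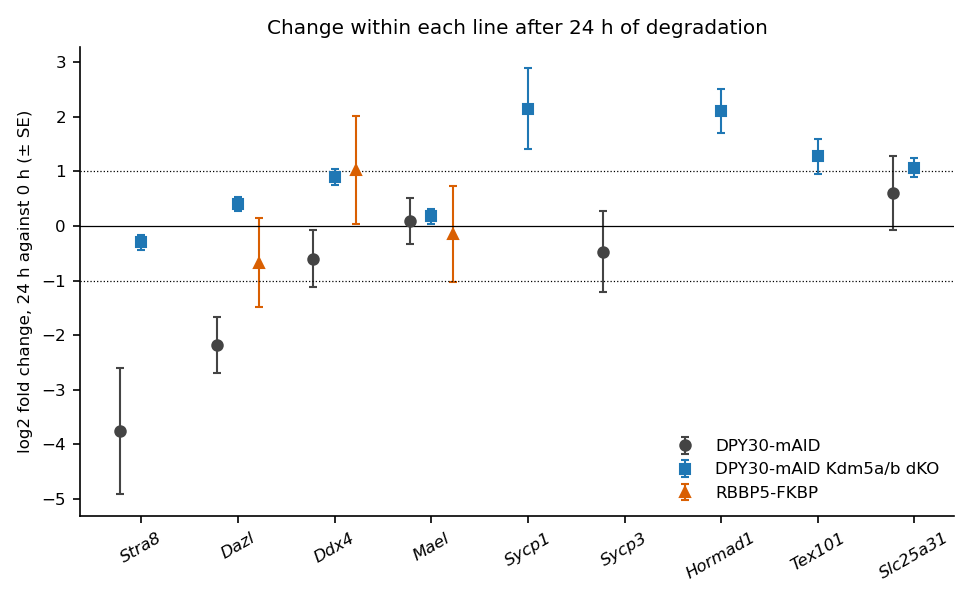
Log2 fold change of each germline gene with enough reads between 24 h and 0 h of degradation (vertical axis, edgeR, bars ± SE) in DPY30–mAID, dKO and RBBP5–FKBP cells, with dotted lines at −1 and 1. Dazl (−2.18) is below −1 in DPY30–mAID, as is Stra8, which passed the filter only through its 0 h libraries, and Slc25a31 (1.06), Tex101 (1.28) and Hormad1 (2.11) are above 1 in dKO. Sycp1 in dKO is also above 1, with at most 19 reads in a library.

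The members together rose from 57.6 CPM at 0 h to 1450 ± 79.8 CPM (SD, n = 2) after 1 day of RA with DMSO. Stra8 made up 90.7% to 91.2% of that sum. These values were among those that chose the members. RA, the withdrawal of LIF and time in culture change together against 0 h and cannot be told apart.

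Stra8 went from 18.4 and 18.1 CPM at 0 h to 220 and 222 CPM at 8 h, and to 1366 and 1272 CPM on day 1, a mean 72.4 times that of 0 h. It then fell, to 840 and 855 CPM on day 2, 287 and 296 CPM on day 4 and 237 CPM on day 6. Groups of neighbouring times did not overlap. The dKO cells, which had no RA, were at 48.6 to 83.0 CPM, between the 0 h and the 8 h libraries.

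The other members took other courses. Dazl had 4.93 and 12.97 CPM at 0 h, 49.4 and 46.8 CPM on day 1, 76.1 and 79.3 CPM on day 4 and 123 CPM on day 6, so that it was highest in the last group, in which Stra8 had fallen. Slc25a31 rose from 0.896 and 2.75 CPM to 11.4 and 14.9 CPM on day 1 and 23.0 and 18.7 CPM on day 4. Mael moved little, from 12.99 and 15.3 CPM to at most 26.3 and 32.2 CPM on day 2, below the lowest dKO library of 74.7 CPM.

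Ddx4 was highest on day 1, at 35.3 and 22.0 CPM, and lowest on day 6, at 5.73 CPM. Tex101 had 2 and 3 reads at 0 h, 18 and 13 on day 1, and 2 and 3 on day 4. Hormad1, with its multimapped reads, had at most 18 reads in a DMSO library, and Sycp1 and Sycp3 had at most 4 and 6.

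With auxin, which removes DPY30 during RA treatment, Stra8 rose later. At 8 h it had 134 and 120 CPM, below both DMSO libraries, with a ratio of auxin to DMSO of 0.573. On day 1 it had 635 and 602 CPM, again below both (ratio 0.469). On day 2, when auxin was at its highest with 811 and 802 CPM, the ratio was 0.952. From day 4 the order was turned, with 429 and 466 CPM in auxin and a ratio of 1.53 on day 4, and 447 and 547 CPM against the 237 CPM of the 1 DMSO library on day 6 (ratio 2.09). With TMM scaling these ratios were 0.541, 0.486, 0.900, 1.36 and 1.91.

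Dazl and Slc25a31 were higher with auxin on days 2 and 4. Dazl had 94.7 and 109 CPM on day 2 and 172 and 179 CPM on day 4 in auxin, against 46.4 and 46.2, and 76.1 and 79.3 CPM, in DMSO. Slc25a31 had 31.4 and 36.5 CPM, and 48.4 and 46.3 CPM, in auxin, against 12.9 and 14.9, and 23.0 and 18.7 CPM, in DMSO. Neither gene's groups overlapped on either day, and all 4 ratios were from 2.21 to 2.44, or from 1.99 to 2.31 with TMM scaling. With at most 2 libraries per group, groups of a member in RA that do not overlap are a description only. The share of all genes doing so is not given. At the first and the last time the genes went different ways. At 8 h Dazl was lower with auxin, at 20.7 and 13.7 CPM against 22.5 and 25.2 CPM (ratio 0.722), and Slc25a31 was higher, at 7 and 15 reads against 3 and 5. On day 1 Dazl was higher with auxin, at 60.6 to 63.1 CPM against 46.8 to 49.4 CPM (ratio 1.29). Slc25a31 was higher then as well, at 45 and 34 reads against 21 and 27. On day 6 Dazl had 139 and 113 CPM in auxin, on either side of the 123 CPM of DMSO, and Slc25a31 had 53.6 and 40.3 CPM, above the 14.1 CPM of DMSO.

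The other members had no common order. Mael with auxin was lower at 8 h, at 14.7 and 10.8 CPM against 18.8 and 15.5 CPM, higher on day 1, at 33.2 and 34.1 CPM against 19.5 and 20.9 CPM, overlapping on day 2, and higher on day 4, at 36.0 and 34.4 CPM against 22.5 and 23.3 CPM. Ddx4 with auxin was higher at 8 h, at 12.4 and 11.3 CPM against 9.93 and 9.23 CPM, and lower on day 2, at 14.6 and 14.9 CPM against 22.7 and 15.9 CPM. It overlapped on days 1 and 4.

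Tex101 had 9 and 23 reads on day 4 in auxin and 2 and 3 in DMSO, 24 and 13 against 10 and 6 on day 2, and overlapped on day 1. Hormad1 was apart only on day 2, with 22 and 21 reads against 11 and 11. Sycp3 was lower with auxin on day 1, at 3 and 1 reads against 6 and 5, and on day 4, at 0 and 0 against 1 and 3. On day 2 Sycp3 was higher with auxin, at a mean of 1.11 against 0.491 CPM. Sycp1 had 7 and 5 reads against 1 and 1 on day 2, and at most 7 in any library. Its auxin libraries also lay above DMSO on day 4 and, like those of Tex101, at 8 h. On day 6 the shallower auxin libraries had 10.99 and 11.07 CPM of Ddx4 against 5.73 CPM, 28.9 and 24.5 CPM of Mael against 24.2 CPM, and 5 and 10 reads of Tex101 against 7. Hormad1 had 18 and 1 reads against 15 then, and Sycp1 and Sycp3 had at most 4 reads in a library.

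Of the 11 2-cell-like markers 7 had reads on day 4. Their sum was 182 to 196 CPM on day 4 with auxin and 7.21 to 10.3 CPM with DMSO. The primordial germ cell markers summed to 117 to 130 CPM with auxin and 87.2 to 99.1 CPM with DMSO on that day. Pluripotency markers summed to 3090 to 3109 CPM with auxin and 4154 to 4166 CPM with DMSO. Neural and endoderm markers summed to 407 to 437 CPM with auxin and 631 to 633 CPM with DMSO, with 9 and 10 of the 10 detected. The part of any of these in the values of the members was not tested.

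**Figure D3:**
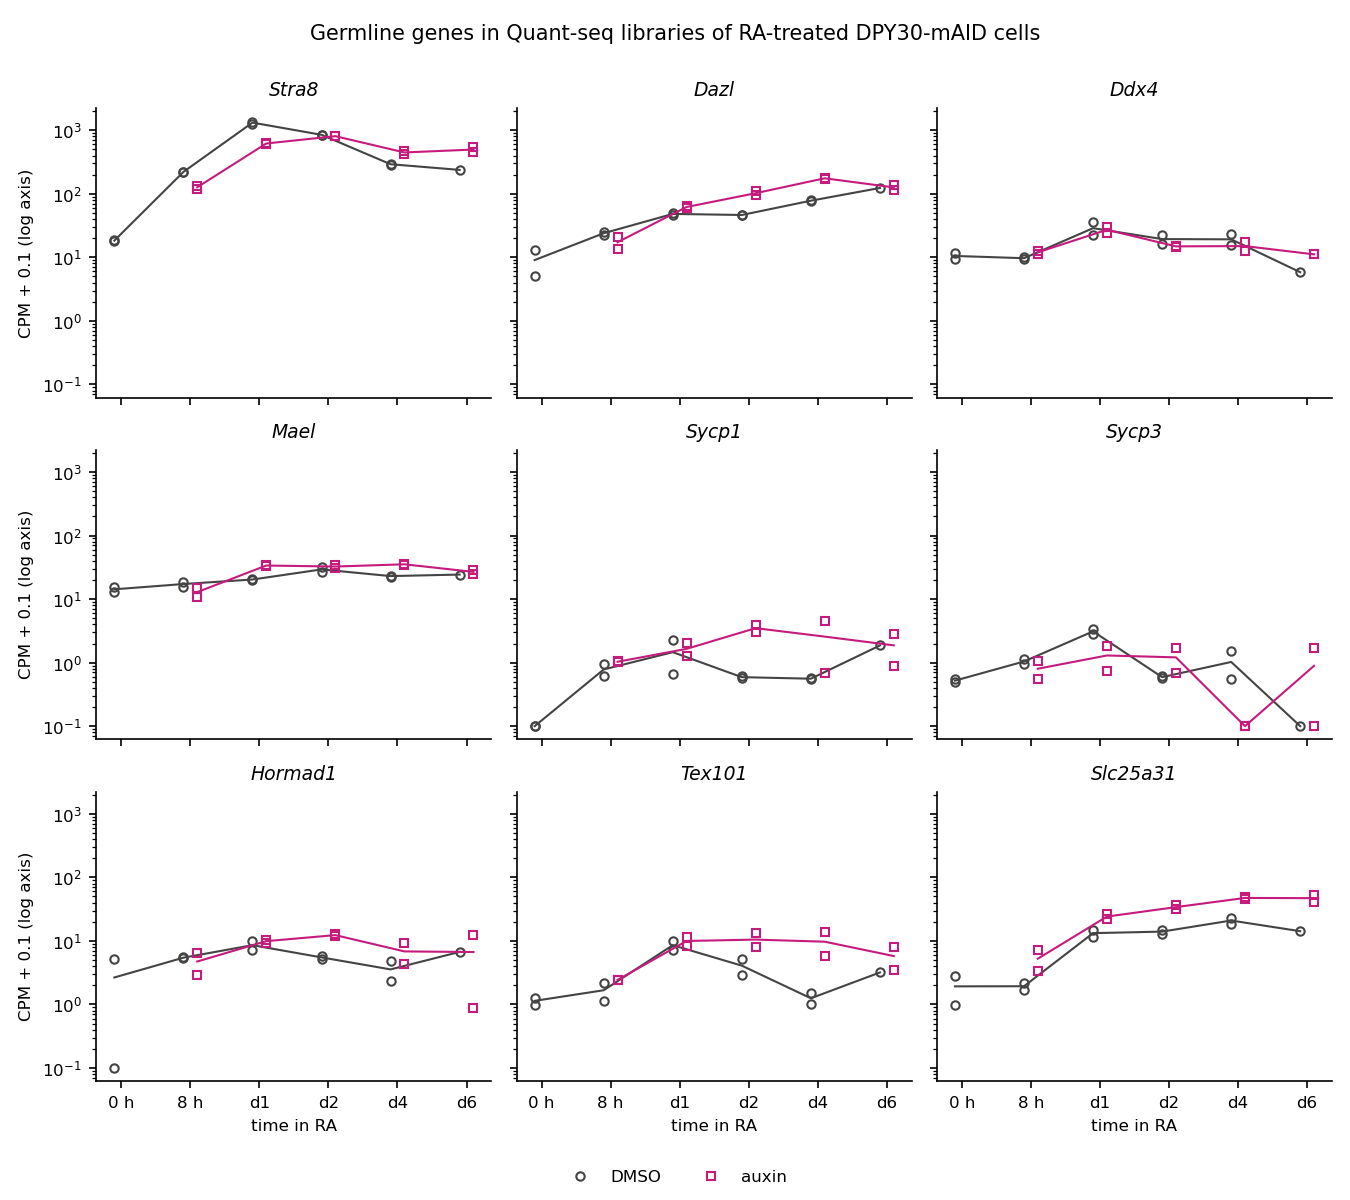
Level of each germline gene in every Quant-seq library of DPY30–mAID cells (CPM + 0.1 on a log axis) against time in RA with DMSO or auxin, with 1 point per library and lines through the means. Stra8 peaks at 1319 CPM on day 1 in DMSO and at 806 CPM on day 2 in auxin, and Dazl and Slc25a31 with auxin run above DMSO on days 2 and 4.

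By correlation of log2(CPM + 1) over the 21 distinct Quant-seq libraries, the genes most like the summed members were Stra8 itself (r = 0.989), Dnajb3 (0.951), Rbm46 (0.944), Nt5m (0.930) and Alg5 (0.922), out of 11415 genes. The libraries share their time course, so that this is a description only. Without Stra8 in the sum, Dazl (0.983), Tram1l1 (0.954), Tmem135 (0.954), Tnik (0.952) and Slc25a31 (0.951) came first.

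A wider list of 70 other germline genes, of which 64 had an entry in the files, was examined for the same comparisons. At 0 h 45 of them were tested between dKO and DPY30–mAID, and edgeR called 15 higher and 1 lower in dKO, where 14.0% of all tested genes were called higher and 10.8% lower. The dKO libraries are deeper, and of these 45 genes only 19 averaged 10 reads in DPY30–mAID at 0 h. Of those 19, edgeR called 5 higher and 1 lower, where 9.63% and 13.3% of the 9067 such genes were. Another 21 reached 10 reads at 0 h in dKO alone, 9 of them called higher, and such genes pass the filter only where they are high. Piwil4, a PIWI protein that binds piRNAs, had 40 reads in the 2 dKO libraries and none in the 3 DPY30–mAID libraries, which makes it at least 6.86-fold higher (floor of 3 reads over the group).

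Tex12, a central element protein of the synaptonemal complex, had 23 reads and none (at least 3.94-fold higher), and Figla, an oocyte transcription factor, 13 and none (at least 2.23-fold higher). Hormad2, a meiotic axis protein, had 344 and 8 reads, a log2 fold change of 4.43 (SE 0.545, edgeR adjusted p = 2.34e-08). Tdrd12, a Tudor protein of the piRNA pathway, was the gene that was lower (−2.03, SE 0.456, edgeR adjusted p = 0.000388). The Figla call was lost in 7 of its 10 alternatives.

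Most of these calls were not made against the untreated Quant-seq libraries. With those as control 3 of 40 tested were higher in dKO, where 7.90% of 10940 genes were, namely Taf7l, Mybl1 and Rhox13, and 1, Tex19.1, was lower, where 7.77% were. Of the 25 that averaged 10 reads in Quant-seq only Rhox13 was called higher, where 6.72% of the 9089 such genes were, and Taf7l and Mybl1 passed the filter only where they are high. Taf7l, a germ cell paralogue of a TFIID subunit, had 150 reads against 1, a ratio of 50.9 with a counting interval of 8.995 to 2023. Mybl1, a regulator of meiotic genes, was higher by 2.07 (SE 0.495) and Rhox13, a homeobox gene of germ cells, by 1.35 (SE 0.435) on the log2 scale. Between untreated DPY30–mAID cells in Quant-seq and in SLAM-seq, edgeR called 8 of 40 other germline genes higher in Quant-seq, where 10.7% of genes were. Of the 19 that averaged 10 reads in SLAM-seq 3 were, where 8.48% of such genes were, among them Rpl10l (3.39, SE 0.210), and 5 others reached that mean in Quant-seq alone. Hormad2 had 73 reads in Quant-seq and 8 in SLAM-seq. The members were chosen on these libraries, so their values against both controls, given above, are not compared with these counts.

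**Figure D4:**
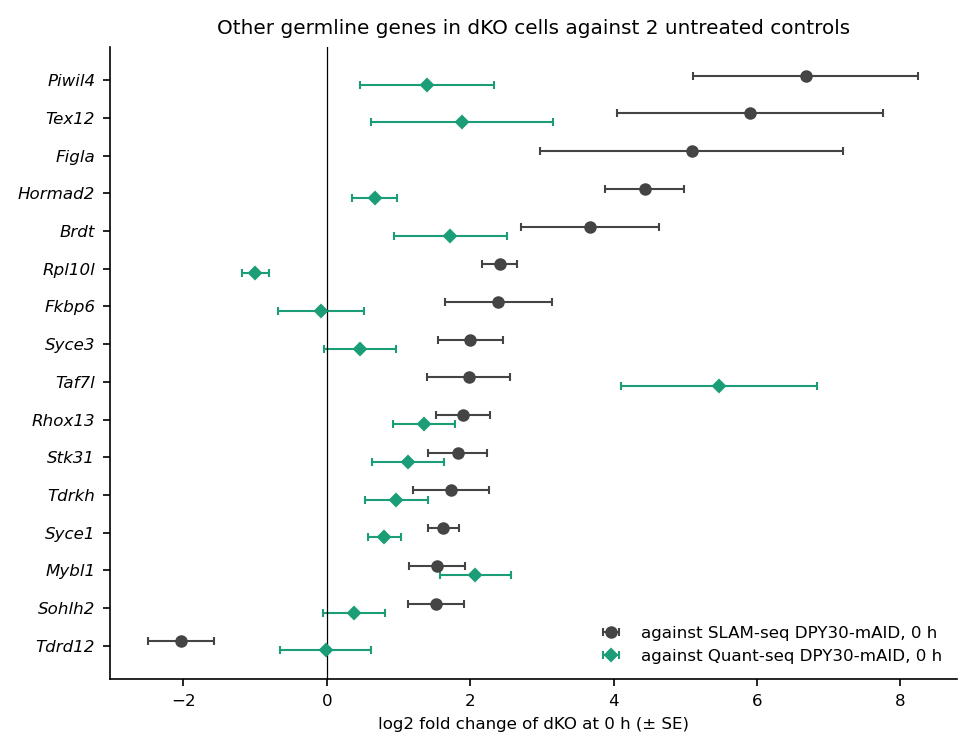
Log2 fold change (horizontal axis, edgeR, bars ± SE) of the 16 other germline genes called in dKO at 0 h, against untreated DPY30–mAID cells in SLAM-seq (circles) and in Quant-seq (diamonds). Hormad2 stands at 4.43 against the SLAM-seq control and lower against the Quant-seq control, and Taf7l at 5.47 against the latter. Fitted values of Piwil4, Tex12 and Figla depend on the prior count, since the SLAM-seq control has no read.

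In the auxin time courses, 26 of the other germline genes were tested in DPY30–mAID and 45 in dKO, a comparison added after the data were seen. In DPY30–mAID at 8 h edgeR and DESeq2 called 2 lower, where 1.96% of genes were by edgeR, and 0 higher, where 2.21% were. At an unadjusted p under 0.05 edgeR had 1 higher. Tex19.1, a mammalian germline protein, fell by 2.22 (SE 0.163) on the log2 scale then, and Rpl10l, a testis ribosomal protein, fell by 1.28 (SE 0.445), a call lost when any 1 of 5 of the 6 libraries was left out. At 24 h edgeR called 2 higher, where 6.16% of genes were, and 2 lower, where 7.05% were. Both that were higher averaged under 10 reads at 0 h. Smc1b, a meiotic cohesin subunit, had 44 reads against 2 at 0 h (ratio 23.6, counting interval 6.16 to 201), and both of those 2 lay in the first 0 h library. Syce3, a central element protein, rose by 2.16 (SE 0.772), a call lost without the first or second 0 h or the third 24 h library. Stag3, another meiotic cohesin subunit, fell by 1.36 (SE 0.218) and Tex19.1 fell by 1.17 (SE 0.153) on the log2 scale.

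In dKO at 24 h 5 were called higher and 0 lower, where 0.878% of genes were higher and 0.579% lower. Only 3 of the 5 averaged 10 reads at 0 h. Mei1, needed for meiotic recombination, rose by 2.57 (SE 0.651), Figla by 1.83 (SE 0.529), Tdrd12 by 1.46 (SE 0.298) and Smc1b by 1.45 (SE 0.354). The calls of Mei1, Figla and Smc1b were lost when any 1 of the 4 libraries compared was left out, and that of Tdrd12 without the second 24 h library. At an unadjusted p under 0.05 edgeR had 12 higher and 2 lower, and DESeq2 called 0 and gave no adjusted p for 30 of the 45. At 48 h edgeR called 2 higher, where 1.64% of genes were, Sohlh1, a transcription factor of early germ cells (2.21, SE 0.565), and Tdrd12 (1.70, SE 0.293). The Sohlh1 call was lost without either 0 h or the first 48 h library. In RBBP5–FKBP edgeR called 0 of 18 tested at 2, 8 and 24 h, with at most 3 higher and 2 lower at an unadjusted p under 0.05, and DESeq2 called 1 higher at 8 h and 1 at 24 h.

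In RA without LIF, many of the other germline genes differed from 0 h too. In DMSO on day 1, 22 of 42 tested were called higher and 0 lower by edgeR, where 16.0% of 11415 genes were higher and 13.4% lower. Of the 25 that averaged 10 reads at 0 h, 13 were called higher, where 9.86% of the 9089 such genes were. At an unadjusted p under 0.05 edgeR had 26 higher and 2 lower, and DESeq2 called 16 higher and 0 lower. Taf7l had 36 reads against 1 (ratio 45.5, counting interval 7.66 to 1845), and Sohlh1 23 against 1 (ratio 29.0, counting interval 4.72 to 1197). Each had its 1 read in only 1 of the 0 h libraries, and without the library that held none the fitted log2 fold change went from 5.15 to 4.48 for Taf7l and from 4.51 to 3.67 for Sohlh1. Gtsf1, a piRNA pathway protein, had 26 reads against 3 (ratio 10.9, counting interval 3.35 to 56.5), and Brdt, the testis bromodomain protein, rose by 3.10 (SE 0.449, edgeR adjusted p = 2.29e-06).

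Day 6 with DMSO is 1 sample, whose spread is assumed to be that of the other groups. For it edgeR called 9 higher, where 22.4% of genes were, and 9 lower, where 14.6% were, and DESeq2 called 7 higher and 6 lower. Of the 25 that averaged 10 reads at 0 h, 4 were higher, where 13.8% of such genes were, and 8 lower, where 17.9% were. Among those called lower were Dmrt1, a regulator of germ cell fate (−3.46, SE 0.281), Stag3 (−3.36, SE 0.211) and Syce2, a central element protein (−2.74, SE 0.217). Tdrd7, a germ granule Tudor protein, had 14 reads in the 1 library of day 6 and none at 0 h (at least 8.52-fold higher).

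Auxin against DMSO gave fewer calls. At 8 h and on day 1 edgeR and DESeq2 called 0 of the 42. Over all genes edgeR called 0.0175% higher and 0.14% lower at 8 h, and 1.02% and 1.38% on day 1, so little can be read from this. At an unadjusted p under 0.05 edgeR had 0 higher and 10 lower at 8 h, and 2 higher and 5 lower on day 1. DESeq2 gave no adjusted p for 32 genes at 8 h and 26 on day 1. On day 2 edgeR called 3 higher, where 2.93% of genes were, and 1 lower, Tdrkh (−1.02, SE 0.291), where 1.88% were. Tex19.2, a paralogue of Tex19.1, was higher by 2.07 (SE 0.353, edgeR adjusted p = 0.000199), Tex15, needed for meiosis and piRNA-directed silencing, by 1.68 (SE 0.495) and Tdrd12 by 1.57 (SE 0.367). The Tex15 call was lost when any 1 of the 4 libraries compared was left out, that of Tdrd12 without the second DMSO library, and that of Tdrkh without the second auxin or either DMSO library. Of the 27 that averaged 10 reads in DMSO then, 2 were higher, where 1.88% of such genes were.

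On day 4 it called 6 higher, where 4.66% of genes were, including Tex19.2 (1.78, SE 0.351), Ldhc, the testis lactate dehydrogenase (2.47, SE 0.724), and Tdrd12 and Tdrd7, with 18 reads against 2 each (ratio 10.5, counting interval 2.52 to 93.6). The fitted log2 fold change of Tdrd12 was 3.02 to 3.40 with single libraries left out. That of Tdrd7 was 3.22, with 2.34 without the second DMSO library and 6.18 without the first, which held both DMSO reads. Its call was lost without the second DMSO or either auxin library, and in DESeq2. The Ldhc call was lost when any 1 of the 4 libraries was left out, and in DESeq2. Of the 28 that averaged 10 reads in DMSO on day 4, 3 were higher, where 2.53% of such genes were, and Ldhc, Tdrd12 and Tdrd7 averaged fewer. Over these 4 times 6 genes were called higher and 1 lower by edgeR, 3 and 0 by DESeq2, and 10 and 0 without TMM scaling. With single libraries left out 3 to 7 were higher and 0 to 2 lower.

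The 24 listed repressors of germline genes with an entry in the files were also compared, a comparison added after the data were seen. In dKO at 0 h edgeR called 4 of them lower, where 10.8% of genes were, and 1 higher, where 14.0% were. The former were Trim28, a corepressor (−1.70, SE 0.0844), Mga (−1.21, SE 0.141), Wdr5 (−1.10, SE 0.111) and Uhrf1, which brings the maintenance DNA methyltransferase to DNA (−1.01, SE 0.105), a call lost in 6 of its 10 alternatives. Yaf2 was higher (1.01, SE 0.422, edgeR adjusted p = 0.0477), a call lost in 6 of its 10 alternatives. In DPY30–mAID at 24 h 4 of 23 tested were called lower, where 7.05% of genes were, namely E2f6 (−1.29, SE 0.311), Atf7ip (−1.12, SE 0.227), Trim28 (−1.07, SE 0.0794) and Rybp (−1.02, SE 0.149). At 8 h E2f6 alone was called lower (−1.37, SE 0.313), where 1.96% of genes were. In dKO at 24 h 0 were called by edgeR, with 8 lower and 2 higher at an unadjusted p under 0.05 and 0 in DESeq2.

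On day 1 of RA with DMSO 9 of the 24 repressors were called lower, where 13.4% of genes were, and 1 higher, where 16.0% were. Dnmt3l, a cofactor of DNA methylation, fell by 3.60 (SE 0.192), L3mbtl2, a PRC1.6 subunit, fell by 1.98 (SE 0.176), Dnmt3b fell by 1.82 (SE 0.146) and Trim28 fell by 1.72 (SE 0.0960) on the log2 scale, and Yaf2 rose by 3.11 (SE 0.266). Whether the level of a repressor had a part in the values of the members was not tested.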

How the data were processed

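SLAM-seq and Quant-seq libraries (QuantSeq 3′ FWD kit) were measured as read counts per 3′ UTR interval. Per the file headers, the authors counted reads with SlamDunk 0.3.4 on GENCODE vM14 intervals of GRCm38, so the deposited counts are raw, with reads with T>C conversions and multimapped reads in separate columns. For Quant-seq the methods name HISAT 2.2.1 and featureCounts instead. Counts of a gene's intervals were summed. Of 58 libraries 57 were used, since one DMSO library of day 6 repeats the other count for count.

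Genes that averaged 10 or more reads in 1 or more groups were tested by edgeR 4.0.16 (quasi-likelihood, TMM, R 4.3.3), per line, over dKO and DPY30–mAID together, over Quant-seq, and over the untreated groups. A gene was called when its log2 fold change exceeded 1 in size with a p under 0.05 after Benjamini-Hochberg adjustment. DESeq2 1.42.0, no TMM, no filter, subtraction of multimapped reads, a replicate block and leaving out each library were the alternatives. The tests were tested on simulated data. Values were tabulated and plotted in Python 3.11.15, pandas 2.3.3, scipy 1.17.1 and matplotlib 3.10.9. Counting intervals are exact at 95%, and a group at 0 reads was set to a floor of 3 reads.

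The members were to be tested within DPY30–mAID and dKO, but are described there without a test, since these libraries chose them. The members, lists and tests were chosen with earlier results of these data known. All members are named. Of the other lists at most 4 called genes per direction with the largest change are named and 5 genes by correlation. Neural and endoderm markers summed to 54.5 to 59.9 CPM in dKO and 104 to 138 CPM in DPY30–mAID at 0 h. One further marker list is not reported here.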

Additional observations from a re-analysis of the deposited data

How the results depend on the processing

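Of 772 alternative values for 87 called changes of listed genes, 663 kept their direction and side of the threshold, 109 kept the direction but lost the call, and 0 changed sign. Of 596 for 65 untested values of the members, 555 moved by less than 1 SE (SD for ratios between lines) and 41 by more. For the other germline genes under auxin against DMSO, 6 higher and 1 lower became 3 and 0 by DESeq2 and 10 and 0 without TMM, and 2 were lower without the filter or with multimapped reads subtracted. In dKO over time their 6 higher became 2 by DESeq2, and at 0 h 15 higher became 3 with Quant-seq controls. For repressors at 0 h, 1 higher became 0 by DESeq2 and 2 with multimapped reads subtracted, when 7 instead of 4 were lower. The causes were not tested.

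Same-numbered libraries were checked for shared deviations. The correlations ran from −0.0984 to 0.338 in dKO and from −0.189 to 0.282 in Quant-seq, with medians from −0.0135 to 0.0332 per set, and 10 of 12 dKO libraries and 10 of 20 Quant-seq libraries were closest to their own number. Since not every pair correlated above 0.1 and the labels name no shared source, the numbers were not taken to pair libraries. With the replicate number as a replicate block the 1 repressor called higher at 0 h, Yaf2, was lost (0). No other count changed by more than 1.5 times.

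No count of members is given within DPY30–mAID or dKO, since these libraries chose them. The counts that follow are those with single libraries left out. Other germline genes under auxin against DMSO were 3 to 7 higher (3 without the second auxin library of day 4) and 0 to 2 lower (2 without the first auxin library of day 1 or the first DMSO library of 8 h, 0 without the second auxin or either DMSO library of day 2). In DPY30–mAID over time they were 1 to 2 higher (1 without the first or the second 0 h or the third 24 h library). In dKO they were 1 to 7 higher (1 without the second and 3 without the first 0 h library, 2 without the first 24 h library). Repressors higher at 0 h were 0 to 1 (0 without the second or the third DPY30–mAID or either dKO library), and 2 to 4 over RA (2 without the first 0 h library). Few reads limit Sycp1 and Sycp3 in every set, and Tex101 and Hormad1 in DPY30–mAID and RBBP5–FKBP.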
